A study of Homo sapiens with 21 samples.

Results

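The genes described here encode the nuclear subunits of respiratory complexes II to V and cytochrome c, chosen by symbol alone: SDHA to SDHD, the UQCR genes and CYC1, CYCS, the COX5 to COX8 genes and the ATP5 genes, with pseudogenes left out. COX4I1 and COX7A2L, whose symbols the pattern does not match, are given apart at the end. The symbol pattern found 81 of the 34021 rows of the table, and 34 pseudogenes were left out, so that 47 genes remained: 4 of complex II, 10 of complex III, CYCS, 13 of complex IV and 19 of complex V. RNA sequencing had profiled H1975, an established human lung adenocarcinoma line with mutant EGFR (epidermal growth factor receptor), in 9 libraries, after 8 days of treatment by the sample labels; the extraction protocol given for all samples of the series speaks of 3 days. OC (3 libraries) received 500 nM osimertinib, which inhibits mutant EGFR irreversibly, with overexpression of cIGF1R, a circular RNA of the insulin-like growth factor receptor gene. OL_EV (3 libraries) received 500 nM osimertinib and 500 nM linsitinib, an inhibitor of the IGF1R and insulin receptor kinases, together with EV. DMSO_EV (3 libraries) received the vehicle DMSO with EV. The labels do not spell out EV, which for OL_EV stands in the title only, give OL_EV and DMSO_EV the genotype WT and name no clone for the overexpressing cells. No group of osimertinib with EV alone was analysed here, so between OC and DMSO_EV drug and circular RNA cannot be told apart, and between OC and OL_EV the absence of linsitinib and the circular RNA cannot be told apart.

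As background, complexes II, III and IV pass electrons from succinate and ubiquinol to oxygen through cytochrome c, and complex V, the ATP synthase, uses the resulting proton gradient to make ATP. Complex II is wholly encoded in the nucleus and is also an enzyme of the tricarboxylic acid cycle, whereas complexes III to V are built from nuclear subunits around a core encoded by mitochondrial DNA. Epithelial tumour cells grown in culture use the ubiquitous isoforms of complex IV subunits, while heart and skeletal muscle use others.

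Levels are given in FPKM, fragment counts divided by gene length and by library size. The file names no unit, and FPKM was inferred from its values. Totals lay between 338034 and 381311 FPKM in OC, between 423319 and 432563 in OL_EV and between 429553 and 474156 in DMSO_EV, and the read depth is unknown. Genes of mitochondrial DNA held 6.08% to 7.28% of the total in OC, 20.4% to 25.6% in OL_EV and 20.3% to 30.4% in DMSO_EV. Epithelial markers summed to 12440 to 15200 FPKM in OC, 13230 to 14400 in OL_EV and 11200 to 12460 in DMSO_EV, with 6 of 6 detected. Single ones moved: in OC against DMSO_EV CDH1 (log2 fold change 1.52), KRT8 (0.42) and KRT19 (0.53) were called higher and KRT7 (-0.46) lower (limma adjusted p = 8.74e-07, 0.0128, 0.00247 and 0.00421). EPCAM and KRT18 were not called there. In OL_EV against DMSO_EV only KRT19 was called, higher (0.51, limma adjusted p = 0.00531). Leukocyte markers summed to 2.53 to 4.48 FPKM in OC, 2.36 to 3.3 in OL_EV and 1.85 to 2.25 in DMSO_EV, and fibroblast markers to 5.53 to 6.05, 3.2 to 3.54 and 3.35 to 3.7 in the same order. PTPRC, CD3E, COL1A2 and DCN among them stayed below 0.05 FPKM in every library, while others moved at low level: COL1A1 (log2 fold change 0.55) and CD14 (0.63) were called higher in OC against DMSO_EV and ITGAM (0.76) in OL_EV against DMSO_EV (limma adjusted p = 9.94e-05, 0.0153 and 2.6e-05). Endothelial markers summed to 0.736 to 0.955 FPKM in OC, 0.135 to 0.207 in OL_EV and 3.55 to 4.08 in DMSO_EV, mostly CDH5. CDH5 was called lower in OC (log2 fold change -1.56) and in OL_EV (-1.97) against DMSO_EV (limma adjusted p = 8.95e-09 and 2.44e-09). Muscle markers summed to 0.48 to 0.553 FPKM in OC, 0.528 to 1.42 in OL_EV and 0.223 to 0.555 in DMSO_EV. The part of these markers in the results was not tested. One extraction protocol is given for all samples and names RNase R, which digests linear RNA; whether these 9 libraries had it is not settled by the labels. Whether libraries of 1 group came from separate cultures is not stated, so the p-values cover the spread among libraries, and that spread may be technical.

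OC replicate 3 stood apart on these genes. All 42 tested subunit genes lay above their group mean in it on the log2(FPKM + 1) scale, by a median of 0.283, and 40 of the 42 were highest there among the OC libraries. The medians of deviation were -0.129 and -0.125 in OC replicates 1 and 2. In OL_EV they ran from -0.0694 to 0.0544 and in DMSO_EV from -0.0182 to 0.0307, with no library holding more than 21 of its group's highest values. The cytosolic ribosomal protein genes were higher in the same library: their median was 8.26 in OC replicate 3 against 7.89 and 7.92 in replicates 1 and 2 on that scale. The total of OC replicate 3 was larger too, at 381311 FPKM against 338034 and 342781 in replicates 1 and 2. Its epithelial markers summed to 15200 FPKM against 12490 and 12440. As a share of the total without mitochondrial DNA genes, the subunit genes held 0.867% in OC replicate 3 against 0.740% and 0.728%. The part of library scale and library preparation in these differences was not tested. Of RN7SL1, an RNA polymerase III transcript, OC replicate 1 held 53.2 FPKM against 6.37 and 3.16 in the other OC libraries, and DMSO_EV replicate 2 held 443 FPKM against 46.4 and 36.1 in the other vehicle libraries. The subunit genes of these libraries deviated by medians of -0.129 and 0.0307.

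**Figure D1:**
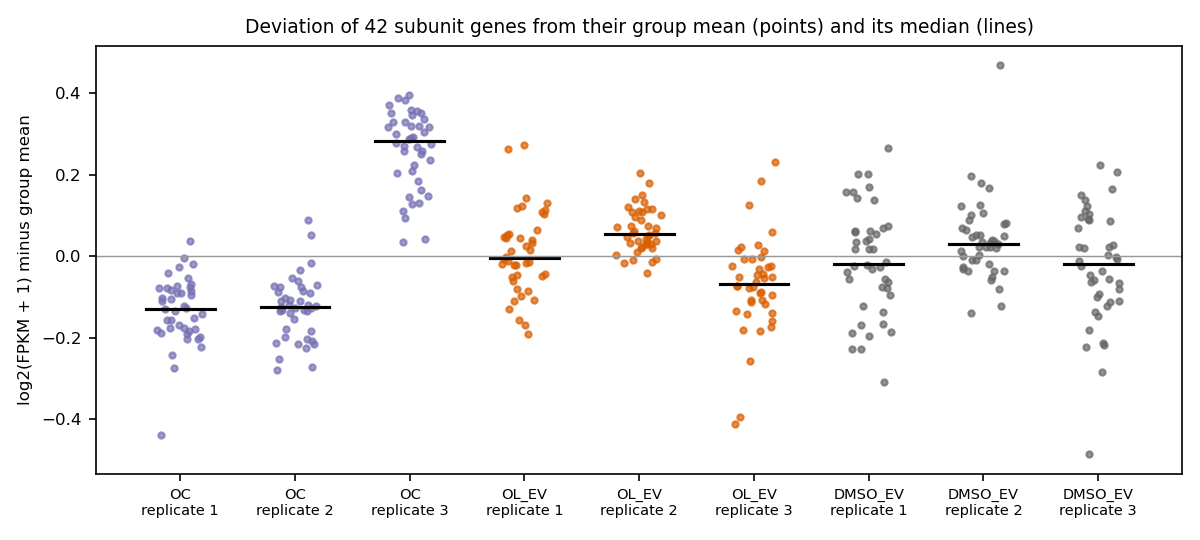
Each point is 1 of the 42 tested subunit genes, plotted as its log2(FPKM + 1) minus the mean of its group in that library (y axis) for the 9 libraries (x axis), with the median as a line. All 42 points of OC replicate 3 lie above 0, and its median is 0.283.

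Of the 47 genes, 42 reached 1 FPKM in at least 3 libraries and were tested, and each of the 42 was above that value in all 9, the lowest value being 3.06 FPKM of CYCS in OC. The 5 others were COX6A2, COX6B2, COX7A1 and COX8C, isoforms of complex IV subunits known from muscle or testis, and ATP5MGL, a copy of the ATP synthase subunit g gene. COX6B2 was present in every library, at 0.37 to 0.647 FPKM in OC, 0.187 to 0.424 in OL_EV and 0.562 to 0.664 in DMSO_EV. COX7A1 reached at most 0.678 FPKM, in OL_EV replicate 3. COX6A2 and COX8C reached at most 0.258 and 0.269 FPKM, both in OC replicate 3, and were listed at 0 in all 3 OL_EV libraries. The ubiquitous partners were abundant in vehicle cells, COX6A1 at 414 ± 33.6 FPKM and COX7A2 at 137 ± 5.73 (SD, n = 3).

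The comparison of OC with DMSO_EV asks how subunit genes stood in cells kept in osimertinib with the circular RNA. Of 42 subunit genes, 36 fell and 0 rose, while 35.8% of all 13775 genes tested were called lower and 33.1% higher, 69% in all (limma, Benjamini-Hochberg adjusted p under 0.05 over all genes tested). For 35 of the 42 genes every OC library lay below every DMSO_EV library and for 0 above, while this held for 36.5% and 33.3% of all genes tested. The median log2 fold change of the 42 genes was -0.95, against -0.03 for all genes tested. ATP5MC1, which encodes the c subunit of the ATP synthase rotor, had a log2 fold change of -2.07, and CYCS, the mobile electron carrier, -1.79. The value of CYCS, a gene of low level, depended on the pseudocount: it was -1.18 with a pseudocount of 5 and -2.04 with 0.1. With 5 its fall was smaller than those of CYC1, ATP5PB, ATP5ME, ATP5MF, UQCRH and ATP5F1D, among others. Mean FPKM, to which no pseudocount is added, stood at 0.227 of vehicle for ATP5MC1 and 0.238 for CYCS. The 6 genes that did not pass were SDHA, SDHC and SDHD of complex II, COX5A, ATP5F1A and ATP5MC2. At an unadjusted p under 0.05, 0 of the 42 genes were higher. At least the 33.1% of all genes called higher met that looser threshold too. By complex, 1 of 4 genes of complex II fell, 10 of 10 of complex III, 8 of 9 of complex IV and 16 of 18 of complex V, with medians of -0.14, -0.76, -0.955 and -1.13. Without OC replicate 3 the count was again 36 lower, and the median of the 42 genes was -1.11. In that setting 36.6% of all genes were called lower and 32.3% higher.

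The comparison of OL_EV with DMSO_EV asks the same of cells kept in both inhibitors. Here 21 of the 42 genes fell and 1 rose, beside 23.5% of all genes called lower and 29% called higher, 52.6% in all. For 29 of the 42 genes every OL_EV library lay below every DMSO_EV library and for 2 above, beside 27.6% and 34.3% of all genes. The median log2 fold change was -0.31 over the 42 genes and 0.05 over all genes tested. CYCS fell by 1.43 and ATP5MC1 by 1.31, and ATP5MC2, a sister gene of ATP5MC1, rose by 0.46 on the log2 scale. By complex, 3 of 4 genes of complex II fell, 5 of 10 of complex III, 4 of 9 of complex IV and 8 of 18 of complex V, with medians of -0.37, -0.26, -0.20 and -0.31. The count depended on single libraries: it was 28 lower without OC replicate 3, whose spread enters the shared error, and 15 without OL_EV replicate 1, without OL_EV replicate 3 or without DMSO_EV replicate 2. The share of all genes called lower moved too, to 25.9%, 21.6%, 20.7% and 19.9% in that order. The share called higher was 31.8%, 24.3%, 25.5% and 25.7%. With no filter on low values, when 33108 genes and all 47 subunit genes entered the fit, 12 subunit genes and 10.1% of all genes were called lower.

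The comparison of OC with OL_EV sets both treated groups against each other. In OC 34 of the 42 genes were lower and 2 higher, beside 34.8% of all genes called lower and 25.9% called higher, 60.7% in all. For 30 of the 42 genes every OC library lay below every OL_EV library and for 2 above, beside 38.4% and 29.6% of all genes. The median log2 fold change was -0.64 over the 42 genes and -0.09 over all genes tested. COX5A, a matrix subunit of cytochrome oxidase, was higher in OC by 0.33 and SDHA, the flavoprotein of complex II, by 0.31 on the log2 scale, whereas the complex II median was 0.06. The medians of complexes III, IV and V were -0.67, -0.58 and -0.77. Median-of-ratios rescaling moved all genes by a median of 0.12 in this comparison; it gave 27 subunit genes lower and 2 higher, and 26.7% of all genes lower against 32.4% higher. Without OL_EV replicate 3 none of the 42 genes was called higher, beside 22.9% of all genes. Without OC replicate 3 or OL_EV replicate 2 only 1 was, beside 25% and 23.1% of all genes. As both comparisons with vehicle share the DMSO_EV libraries, their values are given side by side and were not correlated.

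**Figure D2:**
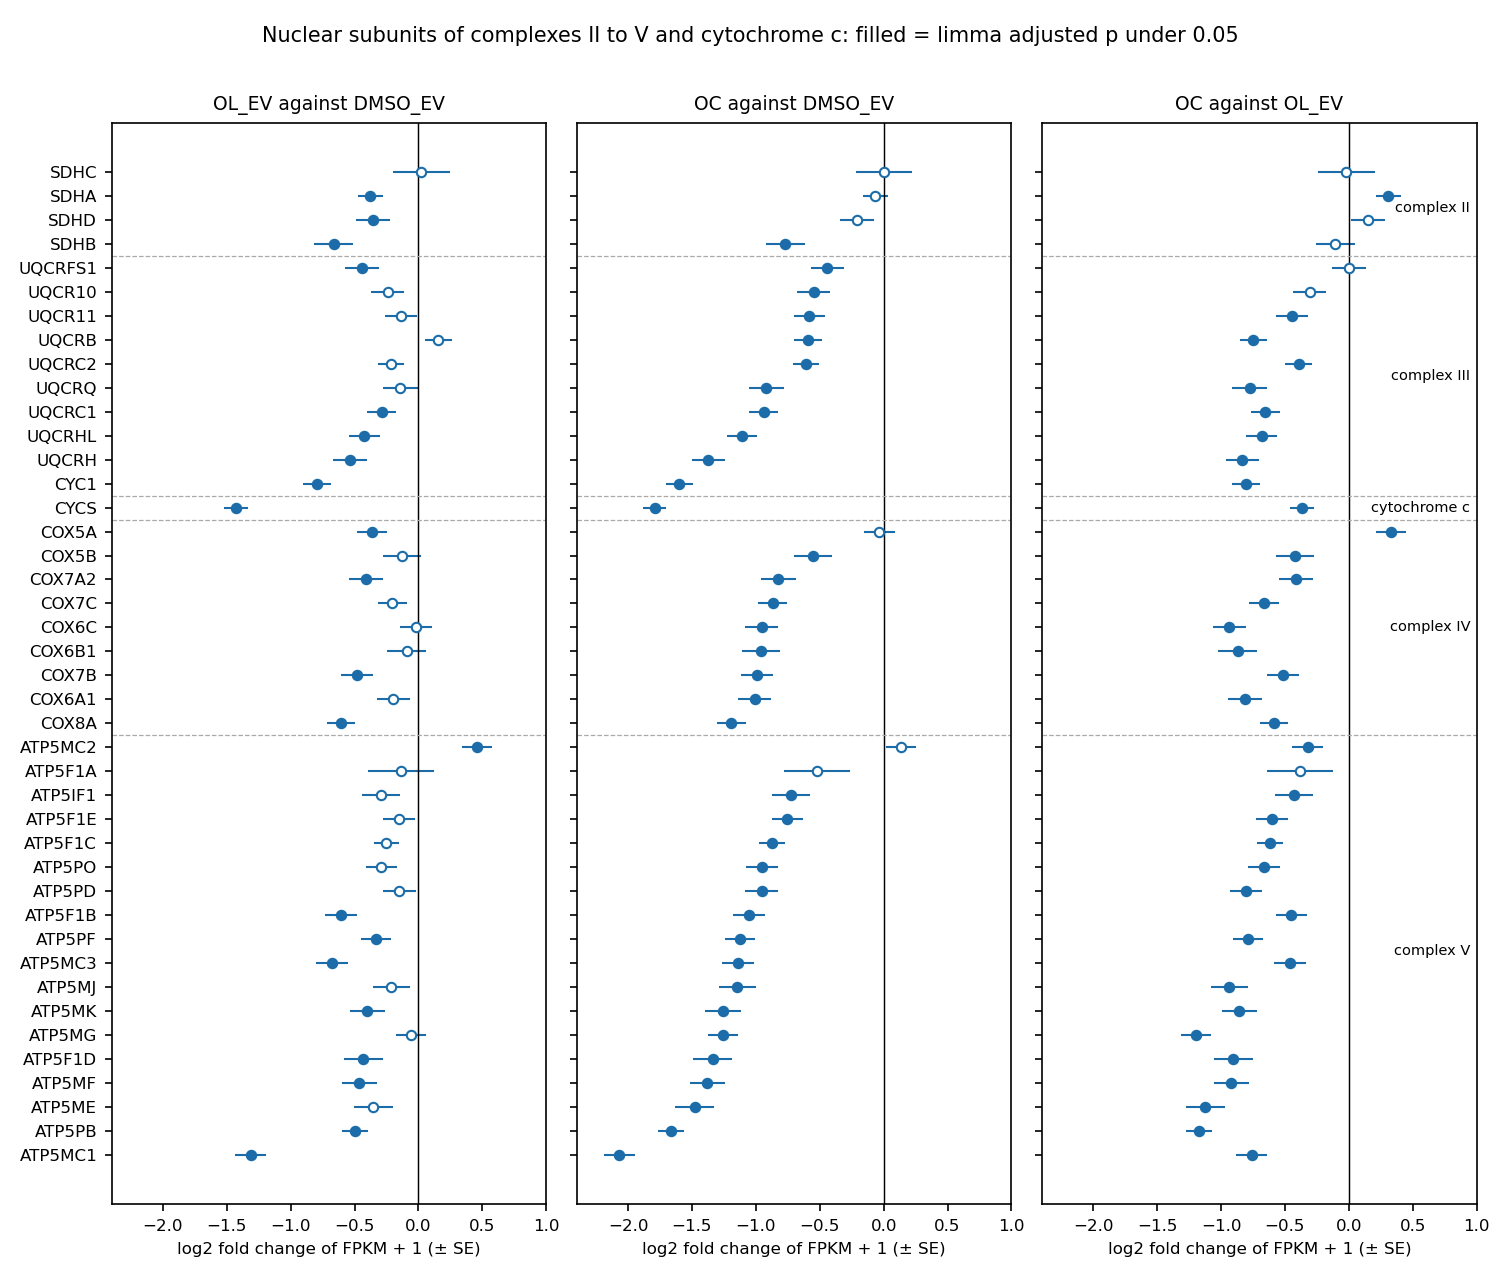
The log2 fold change of FPKM + 1 with its standard error (x axis) is drawn for the 42 tested genes (y axis, by complex) in the 3 comparisons, with filled points for limma adjusted p under 0.05. In OC against DMSO_EV the points of complexes III to V lie left of 0 but for ATP5MC2, with 36 of the 42 genes called lower.

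The upstream sequences of 4 genes are shown for contrast. Of the 42 tested genes CYCS and ATP5MC1 had the lowest ratios of mean FPKM to vehicle in both treated groups, ATP5MC2 was the one gene called higher in OL_EV against DMSO_EV, and COX5A was called higher in OC against OL_EV. Each is the 250 bases before a RefSeq transcript start in GRCh38.p14, written from 5' to 3' on the gene's strand: chr7:25125261-25125510 (minus strand) for CYCS, chr17:48892537-48892786 (plus) for ATP5MC1, chr12:53676084-53676333 (minus) for ATP5MC2 and chr15:74938074-74938323 (minus) for COX5A. The windows of CYCS, ATP5MC1 and COX5A abut the annotated 5' end of the gene. That of ATP5MC2 lies inside the annotated gene (53665170 to 53681423), before an internal start, so its letters do not describe the region upstream of the whole gene. Capitals mark GCATGCGC, the core letters of the site of NRF1 (nuclear respiratory factor 1), CCAAT boxes and CCGGAAG, a core of ETS factors such as GABP, on either strand.
CYCS: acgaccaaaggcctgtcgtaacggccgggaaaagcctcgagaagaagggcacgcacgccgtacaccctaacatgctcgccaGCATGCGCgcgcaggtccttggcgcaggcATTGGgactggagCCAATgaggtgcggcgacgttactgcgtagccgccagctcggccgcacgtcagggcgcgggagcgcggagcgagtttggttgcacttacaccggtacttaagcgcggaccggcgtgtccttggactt
ATP5MC1: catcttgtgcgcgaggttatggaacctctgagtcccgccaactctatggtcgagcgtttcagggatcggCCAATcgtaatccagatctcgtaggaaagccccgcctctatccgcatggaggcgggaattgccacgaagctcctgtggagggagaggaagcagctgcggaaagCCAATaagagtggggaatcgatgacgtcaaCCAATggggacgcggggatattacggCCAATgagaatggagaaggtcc
ATP5MC2: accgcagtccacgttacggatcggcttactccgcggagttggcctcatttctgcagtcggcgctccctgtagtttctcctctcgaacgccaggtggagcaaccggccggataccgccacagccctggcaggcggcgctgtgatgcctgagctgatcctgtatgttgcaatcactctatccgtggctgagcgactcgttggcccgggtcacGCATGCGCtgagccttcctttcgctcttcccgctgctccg
COX5A: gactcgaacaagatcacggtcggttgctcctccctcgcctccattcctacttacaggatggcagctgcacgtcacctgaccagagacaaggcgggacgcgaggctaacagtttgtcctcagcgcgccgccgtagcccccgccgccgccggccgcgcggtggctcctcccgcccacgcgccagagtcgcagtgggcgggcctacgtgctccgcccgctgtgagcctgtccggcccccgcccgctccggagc
The NRF1 core was found once in CYCS and once in ATP5MC2, CCAAT boxes 2 times in CYCS and 4 times in ATP5MC1, and none of these letters in the COX5A window. Of 36 subunit genes with such a sequence, 9 (25%) held the NRF1 core, against 2.81% of 27305 promoters of the same length, and 12 (33.3%) held the ETS core, against 8.815%. CCAAT was found in 15 (41.7%), against 33.04%. The cyclic AMP response element TGACGTCA was found in 2, ATP5MC1 and ATP5ME (1.765% of all promoters), the E-box CACGTG in 3 (6.49% of all), and the ERR element TCAAGGTCA in 0 (0.319% of all). These are matches of letters, chosen after the values of the genes were seen.

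Complex II, succinate dehydrogenase, oxidises succinate and hands its electrons to ubiquinone. SDHA, which carries the covalently bound flavin, held 51.9, 48.05 and 51.7 FPKM in OC, 43.8, 42.8 and 35.6 in OL_EV and 55.05, 52.2 and 51.6 in DMSO_EV. All 3 OL_EV libraries lay below those of both other groups, while OC and DMSO_EV overlapped. The log2 fold change was 0.31 in OC against OL_EV (SE 0.10, limma adjusted p = 0.014), -0.38 in OL_EV against DMSO_EV (limma adjusted p = 0.00537) and -0.07 in OC against DMSO_EV (SE 0.10, limma adjusted p = 0.557). The call in OC against OL_EV ended without OL_EV replicate 3, at 0.0862. SDHB, the iron-sulfur subunit, held 23.15, 25.9 and 37.5 FPKM in OC, 33.5, 31.1 and 27.15 in OL_EV and 43.3, 49.9 and 53.8 in DMSO_EV. Its values were below vehicle in every treated library, by 0.77 in OC and 0.66 in OL_EV on the log2 scale (limma adjusted p = 0.000599 and 0.00278). The ratio of SDHA to SDHB was 1.83 ± 0.431 in OC, 1.33 ± 0.0375 in OL_EV and 1.09 ± 0.161 in DMSO_EV (SD, n = 3). SDHC and SDHD anchor the enzyme in the inner membrane. SDHC held 16.8, 24.6 and 29.7 FPKM in OC, 28.3, 25.8 and 17.6 in OL_EV and 20.1, 22.5 and 27.1 in DMSO_EV, with all groups overlapping. SDHD held 19.1, 18.8 and 21.8 FPKM in OC, 19.8, 19.4 and 14.7 in OL_EV and 19.6, 23.4 and 26.8 in DMSO_EV. It was called lower in OL_EV against DMSO_EV although the groups overlapped (log2 fold change -0.36, limma adjusted p = 0.0349), and the call ended with a replicate block, with no filter, with only these groups in the fit and without OL_EV replicate 3, DMSO_EV replicate 2 or DMSO_EV replicate 3, over a range of 0.00906 to 0.172.

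Complex III, the cytochrome bc1 complex, moves electrons from ubiquinol to cytochrome c. CYC1, its cytochrome c1, held 46.9, 45.07 and 50.8 FPKM in OC, 78.1, 93.04 and 80.8 in OL_EV and 138, 165 and 136 in DMSO_EV. The 3 groups did not overlap: the log2 fold change was -1.60 in OC against DMSO_EV, -0.79 in OL_EV against DMSO_EV and -0.80 in OC against OL_EV (limma adjusted p = 2.1e-08, 3.99e-05 and 3.06e-05). The Rieske iron-sulfur protein, encoded by UQCRFS1, held 14.5, 14.4 and 17.3 FPKM in OC, 16.6, 15.7 and 13.8 in OL_EV and 16.9, 24.4 and 22.9 in DMSO_EV. UQCRFS1 stood at 0.718 of the vehicle mean in OC and 0.717 in OL_EV and did not differ between them beyond the spread (log2 fold change 4e-04, SE 0.13, limma adjusted p = 0.998). Its call in OC against DMSO_EV (limma adjusted p = 0.00876) was lost without DMSO_EV replicate 2, at 0.0503. The call in OL_EV against DMSO_EV (0.0123) ended with no filter and without OL_EV replicate 3, DMSO_EV replicate 2 or DMSO_EV replicate 3, with p up to 0.0665.

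The core proteins UQCRC1 and UQCRC2 form the matrix face of the complex. UQCRC1 held 44.4, 43.6 and 56.5 FPKM in OC, 78.7, 77.8 and 71.05 in OL_EV and 85.03, 101 and 92.4 in DMSO_EV. UQCRC2 held 34.8, 38.6 and 38.4 FPKM in OC, 51.5, 50.7 and 45.6 in OL_EV and 49.8, 59.2 and 63.7 in DMSO_EV. Both were below the other groups in every OC library, by 0.94 and 0.61 against DMSO_EV and by 0.65 and 0.39 against OL_EV on the log2 scale. UQCRC2 did not pass in OL_EV against DMSO_EV (limma adjusted p = 0.103), and UQCRC1 passed there narrowly (0.0493), between 0.00942 and 0.178 across the other settings. The hinge protein gene UQCRH held 101, 99.4 and 142 FPKM in OC, 205, 211 and 190 in OL_EV and 288, 298 and 293 in DMSO_EV. It fell by 1.37 in OC and by 0.54 in OL_EV against DMSO_EV on the log2 scale. UQCRHL, an intronless copy of UQCRH, read 0.0421 ± 0.00141 of UQCRH in OC, 0.0409 ± 0.00302 in OL_EV and 0.0389 ± 0.00225 in DMSO_EV (SD, n = 3). The ratio moved little, and reads shared by both genes make the value of UQCRHL uncertain.

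The small subunits UQCRB, UQCRQ, UQCR10 and UQCR11 complete complex III. In OC they stood at 0.532 to 0.687 of the vehicle mean and each fell, by 0.59, 0.92, 0.55 and 0.58 on the log2 scale. In OL_EV none of the 4 passed, and UQCRB, a subunit near the ubiquinone site, was above vehicle in every library at 13.7, 14.07 and 13.8 FPKM in OL_EV against 12.9, 11.6 and 12.5 in DMSO_EV (log2 fold change 0.155, limma adjusted p = 0.242). UQCR10 passed neither in OL_EV against DMSO_EV nor in OC against OL_EV (limma adjusted p = 0.135 and 0.0552).

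CYCS, cytochrome c, carries electrons between complexes III and IV and triggers the apoptosome when released. CYCS (chromosome 7 from 25118656 to 25125260, GRCh38) held 3.06, 3.18 and 3.62 FPKM in OC, 4.67, 4.64 and 4.23 in OL_EV and 13.4, 13.3 and 14.8 in DMSO_EV. The groups did not overlap, and the lowest vehicle library was above the highest treated one. The means stood at 0.238 of vehicle in OC and 0.326 in OL_EV. The log2 fold change was -1.79 in OC and -1.43 in OL_EV against DMSO_EV (SE 0.09 each, limma adjusted p = 1.41e-09 and 3.94e-08), and -0.36 in OC against OL_EV (limma adjusted p = 0.00419). CYCS has many processed pseudogenes that are rows of their own, and how reads common to them were assigned is not given in the sources used here.

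**Figure D3:**
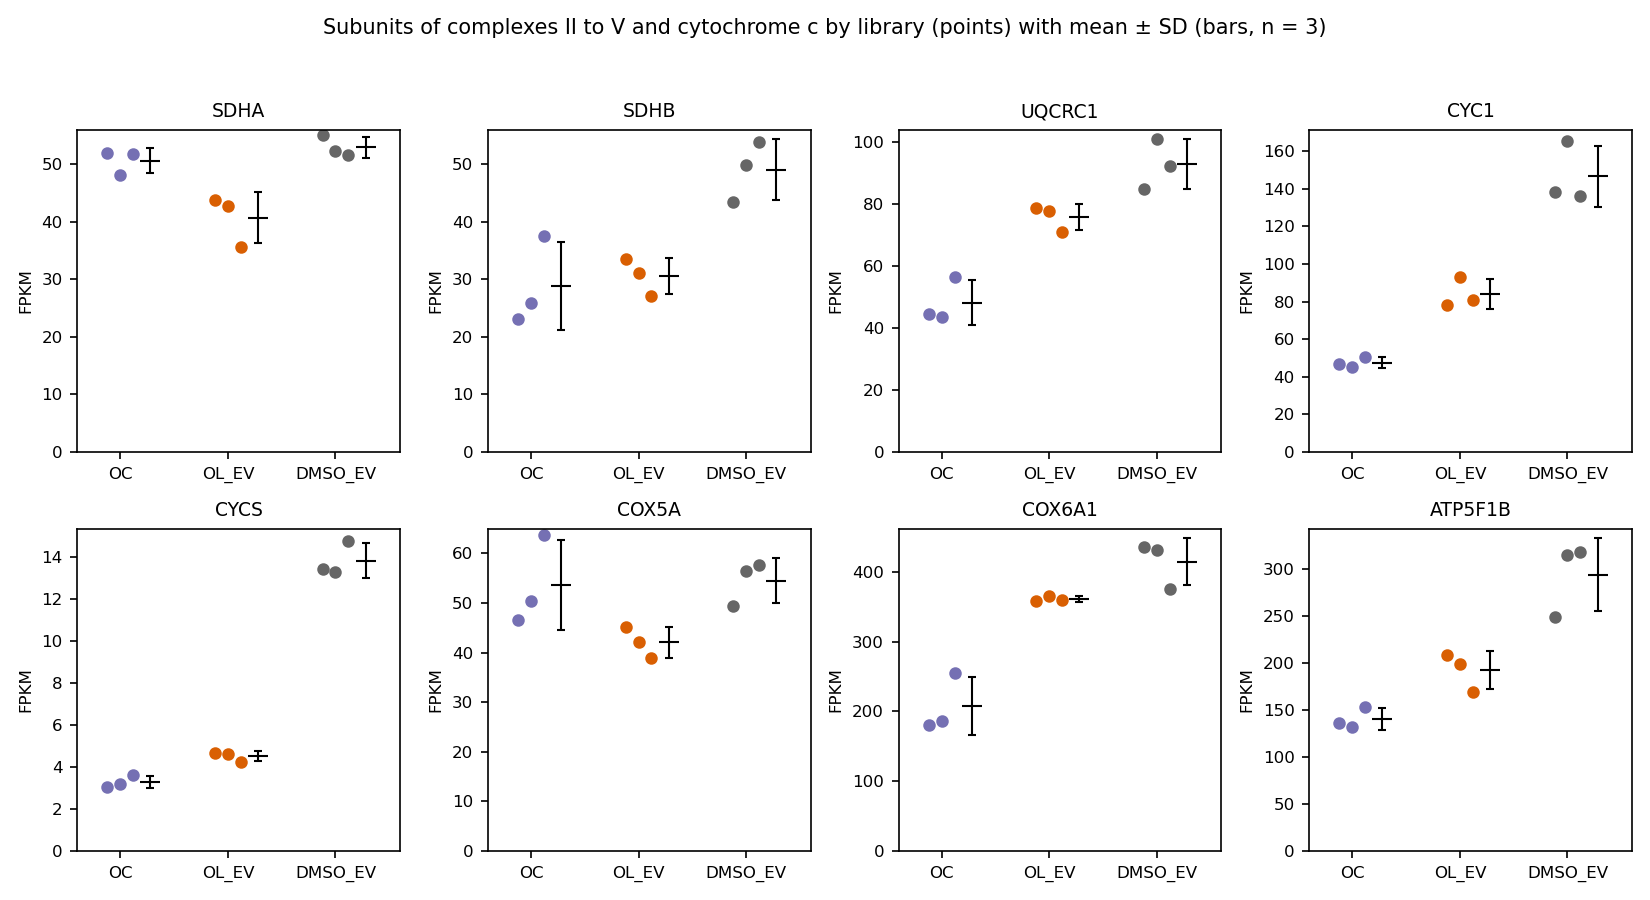
FPKM (y axis, from 0) of 8 subunit genes is drawn per library as points for OC, OL_EV and DMSO_EV (x axis), with mean ± SD (n = 3) beside them. CYC1 and CYCS show 3 separate levels, while SDHA and COX5A overlap between OC and DMSO_EV and are lower in OL_EV.

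Complex IV, cytochrome c oxidase, reduces oxygen to water. COX5A, one of its matrix-side subunits, held 46.7, 50.3 and 63.8 FPKM in OC, 45.3, 42.1 and 39.0 in OL_EV and 49.4, 56.4 and 57.8 in DMSO_EV. OL_EV was below both other groups in every library, and OC overlapped DMSO_EV. The log2 fold change was 0.33 in OC against OL_EV, -0.36 in OL_EV against DMSO_EV and -0.03 in OC against DMSO_EV (limma adjusted p = 0.0287, 0.0209 and 0.814). The higher level in OC was not called with no filter, without OC replicate 3 or without OL_EV replicate 2 or 3, with adjusted p from 0.00424 to 0.106 over the alternatives. The fall in OL_EV was not called with no filter or without OL_EV replicate 2 or 3 or DMSO_EV replicate 2 or 3, with adjusted p from 0.0039 to 0.0825. COX5B, the zinc-binding subunit beside it, held 165, 157 and 240 FPKM in OC, 237, 266 and 239 in OL_EV and 284, 286 and 244 in DMSO_EV. It fell by 0.55 in OC against DMSO_EV on the log2 scale (limma adjusted p = 0.00437) and did not pass in OL_EV against DMSO_EV (0.475). In OC against OL_EV the values of COX5B overlapped, and its call (limma adjusted p = 0.0238) ended without OC replicate 1, OC replicate 2 or OL_EV replicate 2, with no filter and under median-of-ratios rescaling, over a range of 0.000177 to 0.135.

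COX6A1, COX6B1 and COX6C surround the catalytic core, and COX6A1 was the most abundant of the 47 genes in vehicle cells. COX6A1 held 180, 186 and 255 FPKM in OC, 358, 366 and 359 in OL_EV and 435, 432 and 376 in DMSO_EV. COX6B1 held 146, 139 and 208 FPKM in OC, 274, 307 and 309 in OL_EV and 355, 327 and 271 in DMSO_EV. COX6C held 67.9, 61.9 and 88.9 FPKM in OC, 134, 141 and 141 in OL_EV and 155, 138 and 130 in DMSO_EV. For each of the 3 genes every OC library lay below every library of both other groups, while the mean in OL_EV was 0.871 to 0.983 of vehicle and did not pass. COX6C had a log2 fold change of -0.955 in OC against DMSO_EV and -0.93 in OC against OL_EV (limma adjusted p = 1.59e-05 and 3.4e-05).

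COX7A2, COX7B, COX7C and COX8A are single-helix subunits at the rim of the enzyme. COX8A held 149, 139.5 and 168 FPKM in OC, 236, 243 and 207 in OL_EV and 333, 379 and 334 in DMSO_EV. Its 3 groups did not overlap, with a log2 fold change of -1.19 in OC and -0.61 in OL_EV against DMSO_EV (limma adjusted p = 5.29e-07 and 0.000468). COX7B held 19.5, 20.6 and 28.6 FPKM in OC, 32.2, 34.3 and 31.4 in OL_EV and 47.8, 47.6 and 42.4 in DMSO_EV, again without overlap. COX7A2 held 64.8, 71.1 and 98.4 FPKM in OC, 98.96, 111 and 98.1 in OL_EV and 134, 133 and 143 in DMSO_EV. OC replicate 3 brought COX7A2 into the range of OL_EV, and the call in OC against OL_EV (limma adjusted p = 0.0174) ended without OC replicate 1, OC replicate 2 or OL_EV replicate 2, with no filter and under median-of-ratios rescaling (0.000148 to 0.109 over the alternatives). COX7C averaged 131 ± 21.2 FPKM in OC, 206 ± 9.45 in OL_EV and 238 ± 11.3 in DMSO_EV (SD, n = 3) and fell by 0.87 in OC against DMSO_EV on the log2 scale.

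Complex V makes ATP in its F1 head, whose catalytic hexamer is built from ATP5F1A (alpha) and ATP5F1B (beta) around a stalk of ATP5F1C, ATP5F1D and ATP5F1E. ATP5F1B held 136, 132 and 154 FPKM in OC, 208, 200 and 170 in OL_EV and 249, 315 and 319 in DMSO_EV. The groups of ATP5F1B did not overlap, with log2 fold changes of -1.06 in OC and -0.61 in OL_EV against DMSO_EV (limma adjusted p = 5.12e-06 and 0.0011). ATP5F1A held 37.5, 40.3 and 52.1 FPKM in OC, 68.2, 62.2 and 42.06 in OL_EV and 62.8, 86.3 and 43.97 in DMSO_EV. The vehicle libraries alone ranged over almost the whole span of ATP5F1A, and it passed in no comparison (limma adjusted p = 0.0989 in OC and 0.68 in OL_EV against DMSO_EV). In OC against DMSO_EV it passed without DMSO_EV replicate 3, at 0.011. Of the stalk genes, ATP5F1C, ATP5F1D and ATP5F1E fell by 0.87, 1.34 and 0.75 in OC against DMSO_EV on the log2 scale, and of these ATP5F1D passed in OL_EV against DMSO_EV (-0.43, limma adjusted p = 0.029). ATP5F1C missed the threshold there (-0.25, limma adjusted p = 0.0527) although its groups did not overlap, and it was called lower under 8 of 19 alternatives, with p from 0.00696 to 0.131. ATP5F1D had overlapping values there, and its call ended under quantile normalization, with no filter, without OL_EV replicate 1 or 2 and without DMSO_EV replicate 1 or 2, over a range of 0.00963 to 0.119.

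3 genes encode the same mature c subunit, which forms the rotor ring in the membrane, with different import sequences. ATP5MC1 (chromosome 17 from 48892787 to 48895871, GRCh38) held 14.04, 15.7 and 18.2 FPKM in OC, 25.9, 31.4 and 25.8 in OL_EV and 78.2, 71.04 and 61.6 in DMSO_EV. ATP5MC2 (chromosome 12 from 53665170 to 53681423) held 146, 145 and 193 FPKM in OC, 206, 204 and 189 in OL_EV and 140, 156 and 141 in DMSO_EV. ATP5MC3 (chromosome 2 from 175176258 to 175181710) held 30.4, 28.6 and 37.5 FPKM in OC, 48.4, 46.2 and 39.04 in OL_EV and 62.7, 76.06 and 76.5 in DMSO_EV. ATP5MC1 and ATP5MC3 were lower in every treated library than in any vehicle library, while ATP5MC2 was above vehicle in all 3 OL_EV libraries and overlapped vehicle in OC. The log2 fold change of ATP5MC1 was -2.07 in OC and -1.31 in OL_EV against DMSO_EV (SE 0.12 each, limma adjusted p = 4.91e-09 and 1.18e-06). For ATP5MC3 it was -1.14 and -0.68 (limma adjusted p = 2.54e-06 and 0.000495). For ATP5MC2 it was 0.13 in OC and 0.46 in OL_EV (limma adjusted p = 0.331 and 0.00581). Between the treated groups ATP5MC2 was called lower in OC (-0.32, limma adjusted p = 0.032) with overlapping values, and over the alternatives that p ran from 0.000453 to 0.236. The call ended without OC replicate 1 or 2, without OL_EV replicate 1 or 2, with a replicate block, with no filter and under median-of-ratios rescaling.

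As a share of the summed FPKM of these c subunit genes, ATP5MC2 made up 76.9% ± 0.581 in OC, 73.5% ± 1 in OL_EV and 50.6% ± 0.85 in DMSO_EV (SD, n = 3). ATP5MC1 made up 7.67% ± 0.554 in OC, 10.2% ± 0.946 in OL_EV and 24.5% ± 3.02 in DMSO_EV. The ATP5MC2 share was at least 72.5% in each of the 6 treated libraries and at most 51.5% in each vehicle library, and it does not depend on the scaling between libraries. The sum itself was 209 ± 33.9 FPKM in OC, 272 ± 15.8 in OL_EV and 288 ± 13.5 in DMSO_EV. In OL_EV the sum overlapped vehicle (254 to 282 against 279 to 303 FPKM), whereas in OC it lay below vehicle in every library. The 3 genes lie on separate chromosomes and encode the same mature protein. How the authors counted reads that match more than 1 of them is not given in the sources used here.

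**Figure D4:**
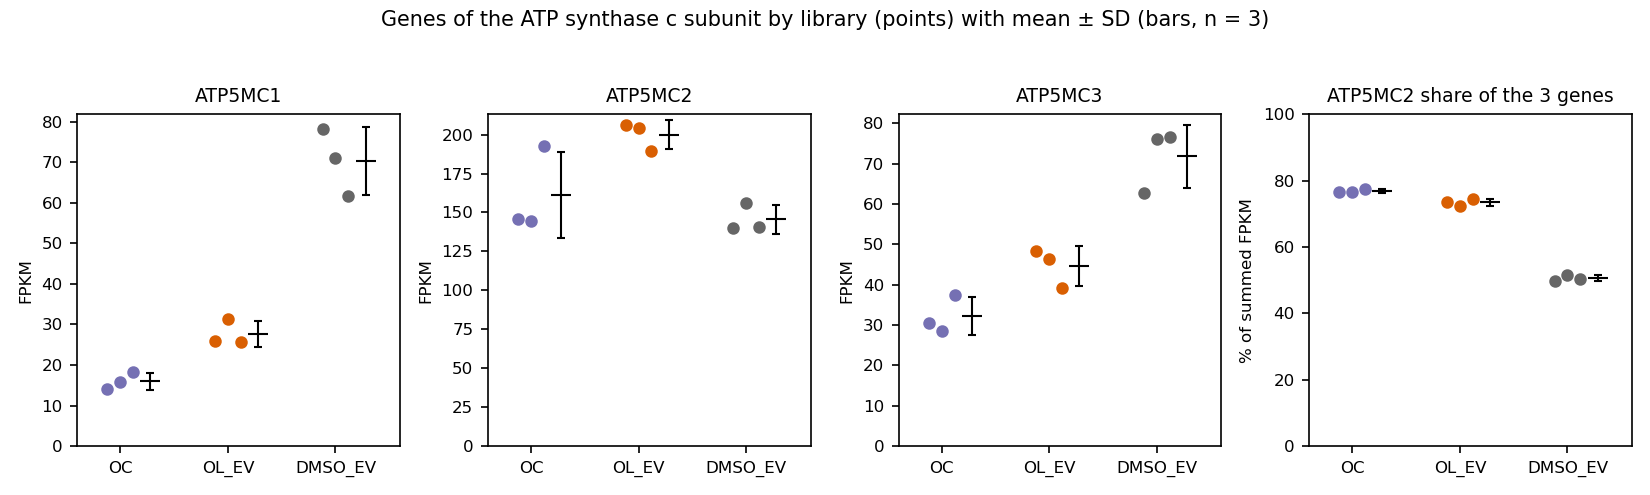
FPKM of the c subunit genes (y axis, from 0) and the share of ATP5MC2 in their sum (right panel, %) are drawn per library as points, with mean ± SD (n = 3), for OC, OL_EV and DMSO_EV. The share lies at 72.5% or above in the treated libraries and at 51.5% or below in the vehicle libraries.

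The peripheral stalk and the membrane part of complex V hold the head in place and let the enzyme form dimers. ATP5PB, subunit b of the stalk, held 12.3, 12.5 and 14.6 FPKM in OC, 31.7, 30.9 and 29.55 in OL_EV and 38.8, 43.7 and 49.09 in DMSO_EV. The 3 groups of ATP5PB were apart, with log2 fold changes of -1.67 in OC and -0.49 in OL_EV against DMSO_EV (limma adjusted p = 8.61e-09 and 0.00124). ATP5MG, subunit g of the membrane part, held 37.7, 34.9 and 49.4 FPKM in OC, 93.3, 92.5 and 94.4 in OL_EV and 98.6, 100.1 and 93.7 in DMSO_EV. On the log2(FPKM + 1) scale ATP5MG had the largest difference between the treated groups among the 42 genes, -1.20 in OC against OL_EV (SE 0.12, limma adjusted p = 1.81e-06). By mean FPKM, to which no pseudocount is added, ATP5PB stood lower, at 0.427 of OL_EV against 0.435 for ATP5MG. ATP5MG did not pass in OL_EV against DMSO_EV (-0.06, limma adjusted p = 0.683). The dimer subunits ATP5ME and ATP5MK fell by 1.48 and 1.26 in OC against DMSO_EV on the log2 scale, and ATP5MF by 1.38. ATP5MF overlaps the readthrough gene ATP5MF-PTCD1, so its reads may be split. ATP5PD, ATP5PF, ATP5PO and ATP5MJ fell by 0.95 to 1.15 in OC against DMSO_EV on the log2 scale, and of these ATP5PF passed in OL_EV against DMSO_EV (limma adjusted p = 0.0278). That call ended under 5 of 19 alternatives (no filter, and without OL_EV replicate 1, OL_EV replicate 3, DMSO_EV replicate 2 or DMSO_EV replicate 3), with p from 0.00202 to 0.0977. ATP5PO missed the threshold there (0.0673) and was called lower under 5 of 19, with p from 0.00548 to 0.202.

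ATP5IF1, an inhibitor that blocks ATP hydrolysis when the proton gradient collapses, held 38.2, 33.4 and 53.01 FPKM in OC, 55.8, 60.2 and 50.2 in OL_EV and 75.9, 66.3 and 62.3 in DMSO_EV. All treated libraries were below vehicle, and ATP5IF1 fell by 0.72 in OC against DMSO_EV on the log2 scale (limma adjusted p = 0.000642) but did not pass in OL_EV against DMSO_EV (-0.29, 0.11). The ratio of its mean to vehicle was 0.609 in OC and 0.812 in OL_EV.

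Summed over their nuclear genes, complex II held 123 ± 15.7 FPKM in OC, 113 ± 16 in OL_EV and 149 ± 10.6 in DMSO_EV (SD, n = 3). Complex III held 399 ± 65.9 in OC, 621 ± 29.04 in OL_EV and 831 ± 43.97 in DMSO_EV. Complex IV held 1070 ± 206 in OC, 1657 ± 61.7 in OL_EV and 1969 ± 125 in DMSO_EV, and complex V 987 ± 164, 1602 ± 52.7 and 2001 ± 88.1 in the same order. The sums of complexes III to V did not overlap between any of the groups. These are bulk samples, in which fewer cells with a transcript and less transcript per cell cannot be told apart.

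The subunits of complexes III to V encoded by mitochondrial DNA passed in 1 of the comparisons with vehicle and not in the other. All 6 (CYTB, COX1, COX2, COX3, ATP6 and ATP8) fell in OC against DMSO_EV, with log2 fold changes from -2.64 to -1.82 and a median of -2.33, and 0 of 6 passed in OL_EV against DMSO_EV (limma, median -0.11). The shares over all genes tested were 35.8% lower and 33.1% higher in OC, and 23.5% lower and 29% higher in OL_EV. At an unadjusted p under 0.05, 0 of the 6 were called in OL_EV against DMSO_EV, while at least 52.6% of all genes tested met that threshold. COX1, COX2 and COX3, the catalytic core of complex IV, summed to 8889 ± 150.3 FPKM in OC, 39850 ± 4993 in OL_EV and 41270 ± 11540 in DMSO_EV (SD, n = 3). The spread in vehicle came from DMSO_EV replicate 1, at 54470 FPKM against 36240 and 33100 in replicates 2 and 3. The total without genes of mitochondrial DNA was 330400 ± 24050 FPKM in OC, 333300 ± 10160 in OL_EV and 340200 ± 9362 in DMSO_EV (SD, n = 3). Rescaling to equal totals without mitochondrial genes gave 36 subunit genes lower in OC against DMSO_EV, with a median of -0.91, and 23 lower in OL_EV against DMSO_EV. That rescaling called 33.7% of all genes lower and 34.2% higher in OC, and 22.5% lower and 30% higher in OL_EV.

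**Figure D5:**
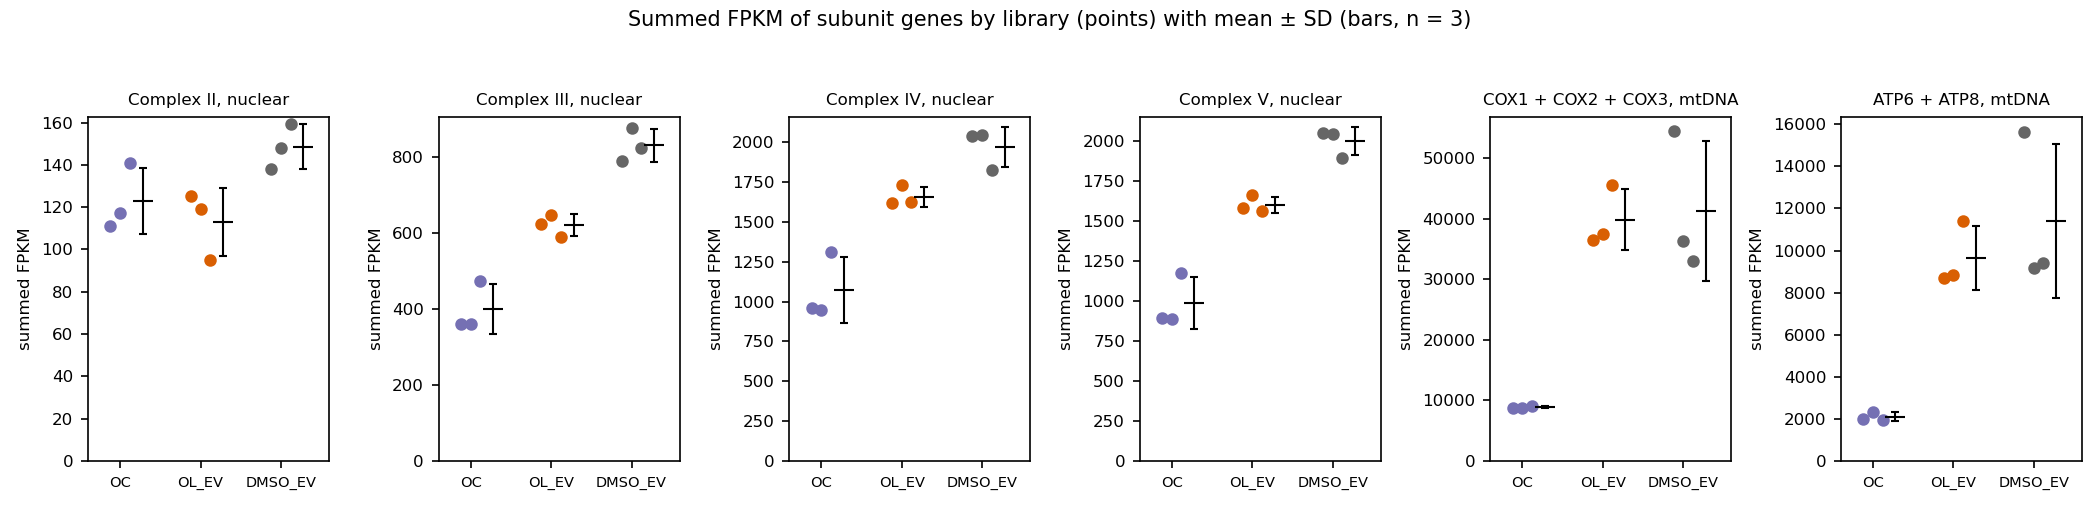
Summed FPKM (y axes, each from 0) of nuclear subunit genes by complex and of subunit genes in mitochondrial DNA is drawn per library as points, with mean ± SD (n = 3), for OC, OL_EV and DMSO_EV. COX1, COX2 and COX3 sum to 8773 to 9059 FPKM in OC and to at least 33100 in the other groups.

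Nuclear subunits of complex IV that the symbol pattern does not reach were read in the same fit. COX4I1, the main isoform of subunit 4, held 115, 105 and 163 FPKM in OC, 228, 238 and 212 in OL_EV and 259, 262 and 228 in DMSO_EV, and fell by 0.99 in OC against DMSO_EV on the log2 scale (limma adjusted p = 4.09e-05). NDUFA4, also a complex IV subunit, fell by 0.81 there, while COX7A2L, a supercomplex factor, did not pass (-0.13, limma adjusted p = 0.42). None of the 3 passed in OL_EV against DMSO_EV. The lung and hypoxia isoforms COX4I2 and NDUFA4L2 did not reach 1 FPKM in 3 libraries and were not tested. COX4I2 reached at most 0.077 FPKM. NDUFA4L2 had 0.245, 0.563 and 0.672 FPKM in OC, 0.864, 1.06 and 1.4 in OL_EV and 0.143, 0.303 and 0.362 in DMSO_EV, with every OL_EV library above every library of the other groups.

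Assembly factors place cofactors and join subunits. In OC against DMSO_EV 7 of 8 tested factors of complex III fell, 13 of 25 of complex IV fell and 2 rose, 2 of 4 of complex II fell and 1 of 5 of complex V fell, beside 35.8% of all genes called lower and 33.1% higher. Their medians in that order of complexes were -0.69, -0.32, -0.16 and 0.09. In OL_EV against DMSO_EV 3 of 8 factors of complex III fell, 8 of 25 of complex IV fell and 3 rose, 0 of 4 of complex II passed, and 2 of 5 of complex V fell and 1 rose, beside 23.5% of all genes called lower and 29% higher. SCO2, a copper chaperone of complex IV, rose by 1.76 in OC against DMSO_EV and by 1.27 against OL_EV on the log2 scale (limma adjusted p = 0.000183 and 0.00199). COA7, a heme-binding assembly factor of complex IV, fell by 1.46 in OC and by 1.33 in OL_EV against DMSO_EV. BCS1L, which inserts the Rieske protein, fell by 1.24 in OC and by 0.47 in OL_EV.

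Of 13 tricarboxylic acid cycle enzymes, 8 fell and 1 rose in OC against DMSO_EV (median -0.55), and 8 fell and 0 rose in OL_EV (median -0.30). Of all genes tested 35.8% were called lower and 33.1% higher in OC, and 23.5% lower and 29% higher in OL_EV. Fumarase (FH), the step after complex II, fell by 1.66 in OC and by 0.63 in OL_EV on the log2 scale, and citrate synthase (CS) by 1.62 and 0.65. The carriers that supply ATP synthase with phosphate and ADP included SLC25A3, which fell by 1.49 in OC and by 0.32 in OL_EV against DMSO_EV, and SLC25A5, which fell by 1.78 and 0.695. SLC25A6, another ADP/ATP carrier, fell by 0.92 in OC and rose by 0.44 in OL_EV (limma adjusted p = 1.28e-05 and 0.00727). Of 8 tested regulators of respiratory genes, 6 fell in OC and 4 in OL_EV against DMSO_EV, beside 35.8% and 23.5% of all genes called lower. PPRC1, a coactivator related to PGC-1 alpha, fell by 1.85 in OC and by 1.10 in OL_EV on the log2 scale, MYC by 1.77 and 1.26, and TFAM, which packages and transcribes mitochondrial DNA, by 0.57 and 0.70. NRF1 fell by 0.44 in OC (limma adjusted p = 0.000777) and did not pass in OL_EV (-0.105, 0.353). PPARGC1A reached at most 0.0279 FPKM, in OC replicate 1.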

How the data were processed

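RNA from H1975 cells was sequenced in 9 libraries, 3 per group, and 12 circular RNA libraries of the series were not analysed here. The authors deposited 1 table of normalized values per gene and library, taken here as FPKM (fragments scaled to gene length and library size). The deposited file names no unit, and FPKM was inferred from values that are not whole and do not sum to an equal total. Per the submitters' processing notes, the build was hg38 and the tools included STAR, edgeR and Bowtie2 2.1.0, with no role given for any, and the strand setting is not given in the sources used here.

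Values were used as log2(FPKM + 1). Genes at 1 FPKM or more in at least 3 libraries (13775 of 34021) entered 1 limma fit (limma 3.58.1, R 4.3.3; trend and robust variance) of all 9 libraries, and p-values were adjusted over all genes tested by Benjamini-Hochberg, with a threshold of 0.05. For genes of low level the added 1 shrinks the fold change. The procedure was tested on simulated data. Promoters and positions are from RefSeq, GRCh38.p14; 47 of 47 genes matched, and 17 are overlapped by another annotated gene, so their reads may be shared. Figures were drawn with matplotlib 3.10.9.

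The genes described, the pathway lists and the tests were chosen with earlier results of these data known. The text names the catalytic and core subunits, the largest called rises and falls of each complex in each comparison, isoform pairs, UQCRH with UQCRHL, and ATP5IF1; others are given as further members. Alternatives were another scaling, filter, pseudocount and variance model, only the groups compared, a replicate block, and leaving out each library.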

Additional observations from a re-analysis of the deposited data

How the results depend on the processing

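Over 19 alternatives, 2248 of 2394 results for single subunit genes kept their direction and side of the threshold, 81 lost the call, 34 gained one and 31 changed sign. Direction could not change with another variance model or filter, only the groups compared or a replicate block. Nor could it change without a library of the group not compared. In those settings only the side of the threshold could move. The count of genes lower in OC against DMSO_EV was 35 to 37 when 1 library was left out, with 0 higher. Over all genes 32.8% to 36.6% were then lower and 28.9% to 33.9% higher. In OC against OL_EV leaving out 1 library gave 30 to 36 lower and 0 to 2 higher, beside 29.9% to 36.1% and 21.2% to 27.3% of all genes. In OL_EV against DMSO_EV it gave 15 to 28 lower and 1 higher, beside 19.4% to 25.9% and 24.2% to 31.8% of all genes. With no filter, which brought 33108 genes into the fit, 12 subunit genes and 10.1% of all genes were lower in OL_EV against DMSO_EV, and 1 subunit gene and 11.6% of all genes were higher in OC against OL_EV. Same-numbered libraries did not deviate together (correlations of -0.315 to 0.0358). With 3 libraries per group this cannot settle whether the numbers pair them, and the labels do not say. With a replicate block 36 genes were lower in OC against DMSO_EV, 19 in OL_EV against DMSO_EV and 33 in OC against OL_EV, with 0, 1 and 2 higher. In the same order 34.8%, 22.4% and 33.1% of all genes were then lower and 32%, 27.3% and 24.7% higher. Median-of-ratios rescaling gave 25 genes lower in OL_EV against DMSO_EV, with 23.8% of all genes higher and 27.8% lower.

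The sign changes all concerned differences that did not pass in the reported fit. In OL_EV against DMSO_EV the log2 fold change became 0.0391 for ATP5MG and 0.0842 for COX6C under quantile normalization, 0.00881 for COX6C with equal totals without mitochondrial genes and -0.063 for SDHC under median-of-ratios rescaling. Leaving out 1 library gave -0.38 to 0.0982 for ATP5F1A, -0.0767 to 0.0479 for COX6C and -0.109 to 0.2195 for SDHC there. In OC against DMSO_EV it became 0.0182 for COX5A under median-of-ratios rescaling, 0.01004 for COX5A with equal totals and -0.0495 for SDHC under quantile normalization. Leaving out 1 library gave -0.163 to 0.0584 for COX5A, -0.174 to 0.221 for SDHC and -0.000818 to 0.205 for ATP5MC2 there. In OC against OL_EV it became 0.0304 for SDHB and 0.115 for SDHC under median-of-ratios rescaling and -0.0498 for UQCRFS1 under quantile normalization. Leaving out 1 library gave -0.304 to 0.0317 for SDHB, -0.218 to 0.199 for SDHC and -0.0813 to 0.0567 for UQCRFS1 there. SDHB was called lower in OC without OC replicate 3 (limma adjusted p = 0.0393). The read depth is unknown, so counting error cannot be given.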

Other observations

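Other gene families of mitochondria and of translation were read in the same fit; they were chosen after the values of the subunit genes were seen. Of all genes tested 35.8% were called lower and 33.1% higher in OC against DMSO_EV, and 23.5% lower and 29% higher in OL_EV against DMSO_EV. Of 37 genes with symbols of complex I subunits (NDUF), 30 fell and 2 rose in OC against DMSO_EV, with a median log2 fold change of -0.65. In OL_EV against DMSO_EV 12 fell and 1 rose, with a median of -0.14. The 37 include NDUFA4, given above as a complex IV subunit, which was among the 30 that fell in OC. Of 78 mitochondrial ribosomal protein genes, 68 fell and 4 rose in OC (median -0.73), and 45 fell and 1 rose in OL_EV (median -0.37). Of 82 tested cytosolic ribosomal protein genes, which encode no mitochondrial protein, 78 fell and 0 rose in OC (median -0.94), and 9 fell and 0 rose in OL_EV (median -0.17). The subunit genes of complexes II to V had medians of -0.95 in OC and -0.31 in OL_EV against DMSO_EV.

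The nuclear subunit genes held 0.726% ± 0.0764 of the total FPKM in OC, 0.932% ± 0.0343 in OL_EV and 1.11% ± 0.0543 in DMSO_EV (SD, n = 3). Of the total without mitochondrial DNA genes they held 0.778% ± 0.0769 in OC, 1.2% ± 0.0235 in OL_EV and 1.46% ± 0.075 in DMSO_EV, without overlap between the groups.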
